A study of Homo sapiens with 12 samples.

Results

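Long noncoding RNAs (lncRNAs) are transcripts that encode no protein, and 8 of them that are often discussed in cancer were followed across the libraries: NEAT1, MALAT1, MIR210HG, LUCAT1, H19, PVT1, MIR31HG and CYTOR. They were found by their symbols in the deposited table and make up 8 of its 60664 genes. RNA was sequenced from MDA-MB-231, an established human cell line from a triple-negative breast cancer, to compare the response to hypoxia with the effect of losing CCAR2, the gene of a regulator of SIRT1 and p53. There were 4 libraries of wildtype (WT) cells in normoxia, 4 of WT cells kept in 1% O2 for 24 hr (WT hypoxia), and 4 of CCAR2 knockout (KO) cells in normoxia, which had been edited with a lentiviral CRISPR vector. Whether the KO cells were 1 clone or a pool is not given in the sources used here. The methods describe biological replicates, but the number they give is lower than the 4 libraries per group that the labels show, and differs between their RNA extraction and their test. Which of the 4 libraries are biological replicates is therefore not known, and p-values measure the spread between these libraries, which may be technical.

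These lncRNAs have different roles. NEAT1 is the scaffold on which paraspeckles, a kind of nuclear body, are built, and MALAT1 gathers in nuclear speckles beside splicing factors. MIR210HG, H19 and MIR31HG are host genes of microRNAs, short RNAs that silence messenger RNAs matched by their seed, and MIR210HG is a known target of hypoxia-inducible factors (HIF). LUCAT1 is a stress-induced transcript, PVT1 lies next to the oncogene MYC, and CYTOR is a mostly cytoplasmic transcript that is abundant in many tumours.

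The levels in the libraries showed 3 patterns. MIR210HG was higher under hypoxia and not called in CCAR2 KO cells, MALAT1 was higher in CCAR2 KO cells and not called under hypoxia, and NEAT1 and LUCAT1 were higher in both. PVT1 was 1.28-fold lower in KO cells than in WT normoxia, a shift with a small adjusted p-value but under the limit on size. CYTOR and H19 were called in no comparison, and MIR31HG had a count of 0 in all 12 libraries. The test was the quasi-likelihood test of edgeR, with p-values adjusted after Benjamini-Hochberg over every gene tested (edgeR adjusted p). A gene was called if this p was under 0.05 and its log2 fold change at least 0.5 in size. Under hypoxia 3 of the 7 lncRNAs that could be tested were called higher and 0 lower, where 5.83% of all 21776 genes were called higher and 1.43% lower. Against WT normoxia, CCAR2 KO cells also had 3 lncRNAs called higher and 0 lower, where 6.73% of 21410 genes were called higher and 2.94% lower. Between KO cells and WT hypoxia 1 was called higher and 2 lower, where 7.08% of 21158 genes were called higher and 7.88% lower. DESeq2 and limma-voom gave the same numbers of lncRNAs called in each comparison and direction, so 0 lower in the first and second. At an unadjusted p under 0.05 and with no limit on size, edgeR gave 3 higher and 0 lower under hypoxia. Of all genes tested, 17.1% were higher and 18.2% lower at this p. In KO cells edgeR gave 3 higher and 1 lower, PVT1, where 19.6% of all genes were higher and 19.8% lower. The first and second comparison share their WT normoxia libraries, so the calls in them are not independent. The lncRNAs were chosen with earlier results of these data known, so their numbers called beside these shares are a description and no test.

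**Figure D1:**
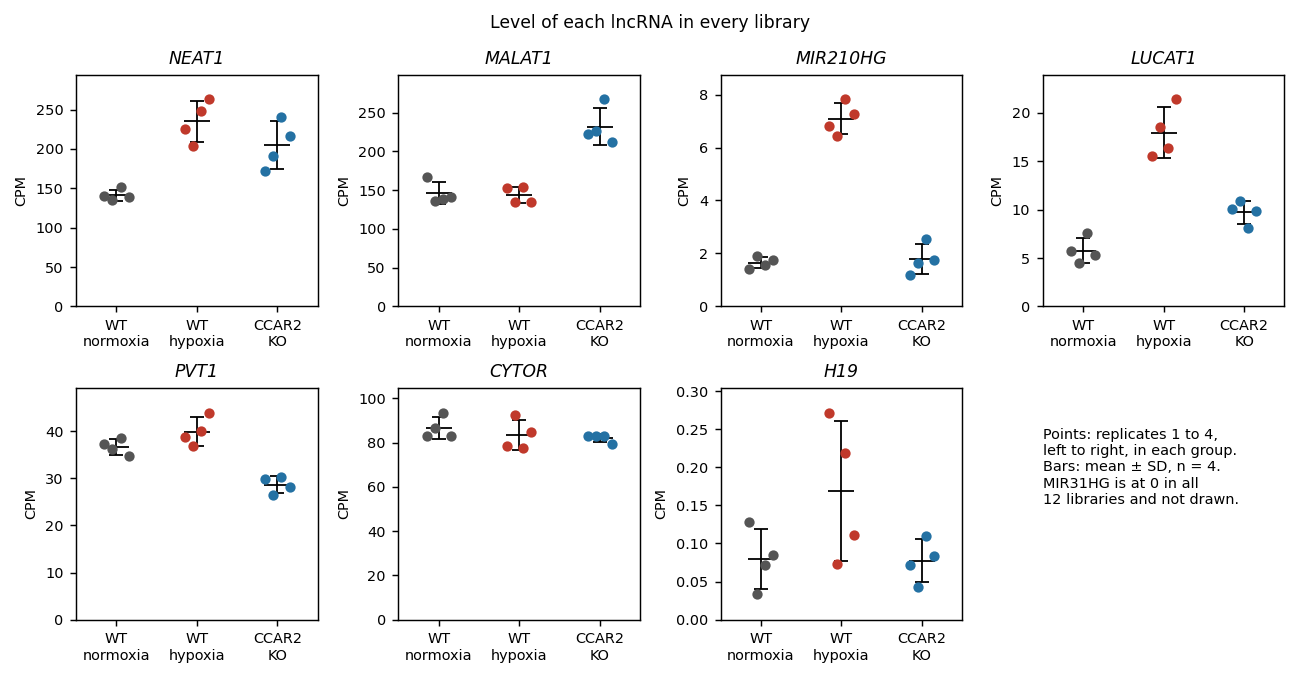
Level of 7 lncRNAs in CPM (counts scaled to library size, y axis, from 0) in the 12 libraries, with 1 point per library, replicates 1 to 4 from left to right in each group, and bars for mean ± SD (n = 4). The MIR210HG points of WT hypoxia lie between 6.45 and 7.82 CPM, above every other library, while all 4 KO points of MALAT1 lie above 212 CPM and all other MALAT1 points under 168.

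The sum of the counts per library was between 153904088 and 213743693 in WT normoxia, between 76384973 and 195621872 in WT hypoxia and between 68599412 and 152328450 in KO cells. Levels are given as CPM, counts that edgeR scaled to a common library sum after TMM normalization. Together the 8 lncRNAs held a share of 0.0391% to 0.0639% of the counts of a library. CCAR2 itself was at 146 ± 3.11 CPM in WT normoxia, 149 ± 4.95 CPM in WT hypoxia and 57.8 ± 2.81 CPM in KO cells (SD, n = 4), and its log2 fold change in KO cells was -1.34 (SE 0.04, edgeR adjusted p = 2.14e-09). The mesenchymal markers VIM, CD44, AXL, FOSL1 and MSN of this cell line were between 385 and 5396 CPM in every library, and ESR1, PGR and CDH1, which it is known to lack, were at most 0.470 CPM. In RNA of a whole culture, fewer cells that express a gene and less of its RNA per cell cannot be told apart.

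MIR210HG (ENSG00000247095, GRCh38 chr11:565660-568457, minus strand) is a lincRNA whose transcripts carry miR-210 inside an intron. In WT normoxia it was at 1.41, 1.90, 1.56 and 1.73 CPM in replicates 1 to 4. The WT hypoxia libraries were at 6.80, 6.45, 7.82 and 7.27 CPM, so that the lowest of them stood above the highest library in normoxia. Of all genes tested under hypoxia, 13.7% were likewise higher with no overlap. The KO libraries were at 1.19, 1.65, 2.53 and 1.76 CPM and overlapped with WT normoxia on both sides. Under hypoxia MIR210HG was 4.27-fold higher, with a log2 fold change of 2.09 (SE 0.12, 95% interval 1.83 to 2.36, edgeR adjusted p = 2.24e-06). Against WT normoxia the KO cells differed by 0.11 on the log2 scale (95% interval -0.34 to 0.56, edgeR adjusted p = 0.738), an interval that includes the limit for a call. KO replicate 3 was the highest of its group, and without it the difference was -0.11. Set against WT hypoxia, KO cells had a log2 fold change of -1.99 (SE 0.20, edgeR adjusted p = 1.68e-05), with KO cells 3.98-fold lower.

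The precursor of miR-210 has an entry of its own in the table, with between 3 and 5 counts per library in WT normoxia, 5 to 25 in WT hypoxia and 1 to 7 in KO cells. It passed the filter on low counts only for hypoxia against normoxia, where its level was higher in the hypoxia libraries. Its log2 fold change there was 2.22 (SE 0.57, edgeR adjusted p = 0.0161), and this p is not separate support. At these counts KO cells were tested against neither WT group. All 4 annotated transcripts of MIR210HG have the mature miR-210 sequences outside their exons, so these counts are not part of MIR210HG's exons. Mature miRNAs were not measured. Those hosted by the lncRNAs are shown because a seed, bases 2 to 8 and here in capitals, sets which messenger RNAs a miRNA can pair with (RefSeq, GRCh38.p14):
miR-210-3p: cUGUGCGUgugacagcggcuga
miR-210-5p: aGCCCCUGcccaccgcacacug
miR-675-3p: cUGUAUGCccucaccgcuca
miR-675-5p: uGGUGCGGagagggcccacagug
miR-31-5p: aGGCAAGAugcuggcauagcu
miR-4435: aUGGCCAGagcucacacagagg
They lie in MIR210HG (miR-210), H19 (miR-675), MIR31HG (miR-31) and CYTOR (miR-4435), and no seed is shared between these hosts. The 7 mature miRNAs found, with miR-4435 counted at CYTOR and again at the CYTOR paralog MIR4435-2HG, have 6 distinct seeds. NEAT1, MALAT1, LUCAT1 and PVT1 had 0 mature miRNAs in the table that was searched.

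HIF bind DNA at a short core of letters, ACGTG or GCGTG, which was looked for on both strands in the RefSeq promoter windows of GRCh38.p14, from 250 bases before the start of the gene to 50 bases after it. The windows of MIR210HG, LUCAT1 and MALAT1, which against WT normoxia were called under hypoxia, in both conditions and in KO cells, are printed for comparison, each on the strand of its gene and with the matches in capitals. CACGC is GCGTG on the other strand.
MIR210HG, chr11:568408-568707, minus strand: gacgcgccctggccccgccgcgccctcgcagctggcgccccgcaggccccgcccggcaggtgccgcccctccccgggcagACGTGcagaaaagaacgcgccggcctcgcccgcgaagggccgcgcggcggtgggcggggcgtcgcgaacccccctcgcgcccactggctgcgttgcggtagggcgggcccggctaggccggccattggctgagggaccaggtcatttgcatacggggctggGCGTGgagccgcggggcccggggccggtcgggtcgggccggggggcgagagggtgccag
LUCAT1, chr5:91314353-91314652, minus strand: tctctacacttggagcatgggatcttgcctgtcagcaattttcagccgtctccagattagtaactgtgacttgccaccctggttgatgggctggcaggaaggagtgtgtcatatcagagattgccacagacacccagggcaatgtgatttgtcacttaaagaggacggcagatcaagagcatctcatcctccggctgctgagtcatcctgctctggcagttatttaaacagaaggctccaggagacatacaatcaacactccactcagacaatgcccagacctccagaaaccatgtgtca
MALAT1, chr11:65497488-65497787, plus strand: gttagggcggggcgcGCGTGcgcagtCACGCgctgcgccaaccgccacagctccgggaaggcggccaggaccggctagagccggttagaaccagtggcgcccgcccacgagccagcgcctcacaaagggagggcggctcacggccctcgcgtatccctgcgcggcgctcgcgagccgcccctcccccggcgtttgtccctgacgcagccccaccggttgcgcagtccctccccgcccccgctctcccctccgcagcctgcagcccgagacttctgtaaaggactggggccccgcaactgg
The MIR210HG window held 1 ACGTG, whose first base lies at position -170 from the start of the gene, and 1 GCGTG at -9. In the MALAT1 window GCGTG was found at -235 and on the other strand at -224, and a second MALAT1 window, not printed, held 1 match. The windows of LUCAT1, H19, MIR31HG and CYTOR held 0. Among all 35116 promoter windows of this length 21.4% held ACGTG, 36.5% held GCGTG and 48.4% held either, so that a match is common. A match describes letters and not a bound site. Of the 8 lncRNAs, 6 had an entry among these windows, and NEAT1 and PVT1 had none.

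LUCAT1 (ENSG00000248323, GRCh38 chr5:91054834-91314547, minus strand) had 5.72, 4.43, 7.56 and 5.32 CPM in WT normoxia. Hypoxia libraries had 15.6, 18.5, 16.4 and 21.4 CPM, and KO libraries 10.04, 10.9, 8.09 and 9.83 CPM. The 3 groups did not overlap, with KO cells between normoxia and hypoxia. Of all genes tested, 13.7% were higher with no overlap under hypoxia and 15.6% in KO cells. Between KO cells and hypoxia 17.8% were lower with no overlap. The log2 fold change of LUCAT1 was 1.63 under hypoxia (3.10-fold, SE 0.16, 95% interval 1.29 to 1.98, edgeR adjusted p = 7.34e-05). In KO cells it was 0.75 (1.68-fold, SE 0.15, 95% interval 0.43 to 1.08, edgeR adjusted p = 0.00226). KO cells were below WT hypoxia, with a log2 fold change of -0.89 (SE 0.12, edgeR adjusted p = 0.000146). LUCAT1 is annotated as antisense to ADGRV1, which encodes an adhesion receptor, and whether the counting used strand is not given in the sources used here, so reads in the overlap cannot be assigned with certainty. ADGRV1 was called in none of the 3 comparisons and had log2 fold changes of -0.30, -0.35 and -0.06 for hypoxia, KO cells, and KO cells against hypoxia, which are opposite in sign to those of LUCAT1 against WT normoxia.

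NEAT1 (ENSG00000245532, GRCh38 chr11:65422774-65445540, plus strand) had 140.4, 135, 151 and 139 CPM in WT normoxia. Under hypoxia the libraries had 226, 203, 249 and 263 CPM, all above normoxia. Among them, replicates 1 and 2, the lower ones, also had the smallest library sums of that group, and the part of depth in this was not tested. KO libraries had 172, 190.5, 241 and 217 CPM, all above WT normoxia and overlapping with WT hypoxia. Of all genes tested, 13.7% were higher with no overlap under hypoxia and 15.6% in KO cells. The log2 fold change of NEAT1 was 0.73 under hypoxia (1.66-fold, SE 0.08, 95% interval 0.56 to 0.89, edgeR adjusted p = 0.000116). In KO cells it was 0.54 (1.45-fold, SE 0.09, 95% interval 0.35 to 0.72, edgeR adjusted p = 0.000476), close to the limit of 0.5. Without KO replicate 3, which had the highest level, it was 0.45 (edgeR adjusted p = 0.0012) and no longer called. Between KO cells and WT hypoxia the log2 fold change was -0.20 (95% interval -0.44 to 0.03, edgeR adjusted p = 0.169), so a lower level of NEAT1 in KO cells than in hypoxia was not detected, and the interval does not exclude one.

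MALAT1 (ENSG00000251562, GRCh38 chr11:65497688-65506516, plus strand) lies on the same strand as NEAT1 and past its end. It had 167, 136, 139 and 142 CPM in WT normoxia and 153, 135, 154 and 135 CPM in WT hypoxia, 2 groups that overlap over most of their range. KO libraries had 222, 226, 267 and 212 CPM, all above both WT groups. Of all genes tested, 15.6% were higher in KO cells with no overlap against WT normoxia and 18.2% against WT hypoxia. Under hypoxia the log2 fold change of MALAT1 was -0.03 (SE 0.08, 95% interval -0.19 to 0.14, edgeR adjusted p = 0.849), an interval that lies within the limit for a call. In KO cells the log2 fold change was 0.67 (1.59-fold, SE 0.08, 95% interval 0.50 to 0.83, edgeR adjusted p = 3.96e-05), and against WT hypoxia 0.68 (1.60-fold, SE 0.08, edgeR adjusted p = 4.33e-05). The methods name a selection of poly-A RNA. The long isoform of NEAT1 and the mature MALAT1 end in a triple helix without a poly-A tail, so these levels are of what passed that selection.

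The NEAT1 and MALAT1 counts of a library share its depth and normalization, and their ratio needs neither. The ratio of NEAT1 to MALAT1 counts was 0.973 ± 0.101 in WT normoxia, 1.64 ± 0.219 in WT hypoxia and 0.884 ± 0.105 in KO cells (SD, n = 4). Every hypoxia library, with 1.48, 1.502, 1.62 and 1.95, stood above every other library, of which the highest had 1.09. The difference between hypoxia and normoxia was 0.75 on the log2 scale (exact permutation p = 0.0286, two-sided and the smallest possible for 4 libraries against 4). Between KO cells and WT normoxia it was -0.14 (exact permutation p = 0.314), and between KO cells and WT hypoxia -0.89 (exact permutation p = 0.0286). NEAT1 and MALAT1 thus moved apart under hypoxia, and their ratio in KO cells did not differ from that in normoxia beyond the spread between libraries.

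**Figure D2:**
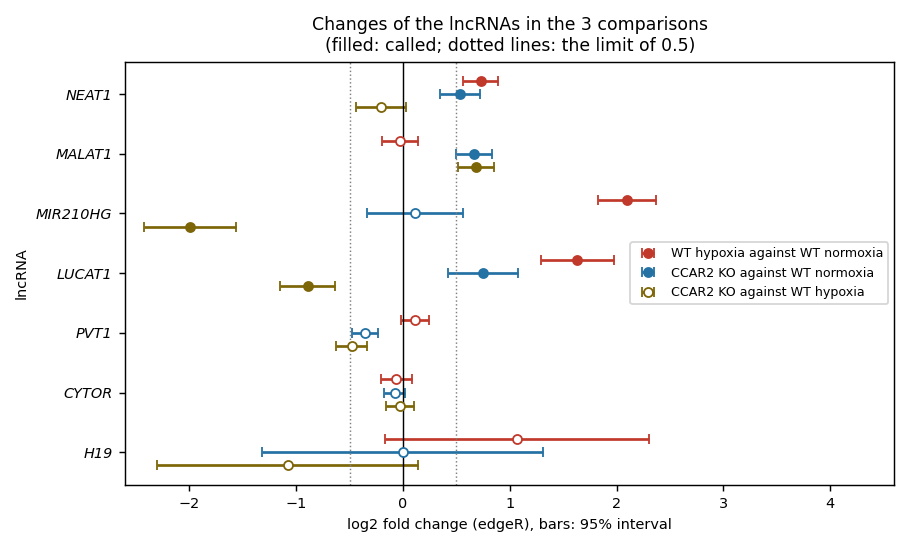
log2 fold change (x axis) of the 7 lncRNAs that could be tested (y axis) in the 3 comparisons, one colour each, with bars for the 95% interval, filled points for genes called and dotted lines at the limit of 0.5. MIR210HG, at 2.09 under hypoxia and -1.99 for KO cells against hypoxia, has the points farthest from 0, and H19 has the widest intervals.

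**Figure D3:**
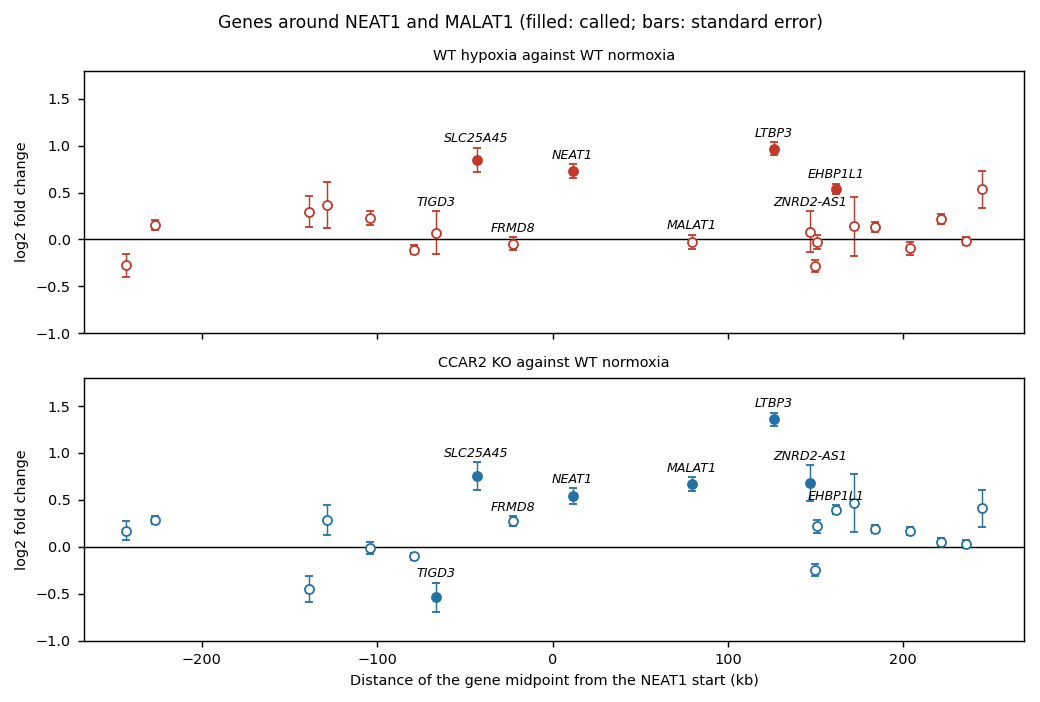
log2 fold change (y axis) of the genes tested within 250 kb of NEAT1 against the distance of the gene's midpoint from the NEAT1 start (x axis, kb) for hypoxia (upper panel) and KO cells (lower panel), with bars for the standard error and filled points for genes called. NEAT1 is called in both panels, MALAT1 at 0.67 in the lower panel, and FRMD8, left of NEAT1, in neither.

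Around NEAT1 and MALAT1, 22 genes reported here were tested within 250 kb of NEAT1 in each comparison. Under hypoxia 4 of them passed, all in the higher direction. These were NEAT1, LTBP3 (log2 fold change 0.96), which encodes a protein that binds latent TGF-beta, the mitochondrial carrier SLC25A45 (0.85) and EHBP1L1 (0.54). The KO cells had 5 called higher, NEAT1, MALAT1, LTBP3 (1.36), SLC25A45 (0.75) and ZNRD2-AS1 (0.68), and 1 lower, TIGD3 (-0.54). FRMD8, the protein-coding gene nearest to NEAT1 at 9.25 kb, had log2 fold changes of -0.04 under hypoxia and 0.27 in KO cells, and was not called in either. Among all genes 7.26% were called in either direction under hypoxia and 9.67% in KO cells.

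Paraspeckles also hold a set of RNA-binding proteins. Of 18 genes of paraspeckle proteins, 0 were called in each of the 3 comparisons by edgeR, DESeq2 or limma-voom. With an unadjusted p under 0.05 and no limit on size edgeR gave 2 higher and 8 lower for hypoxia, 0 and 12 for KO cells, and 3 and 4 between KO cells and hypoxia. Of all genes tested 17.1% were higher and 18.2% lower at this p for hypoxia, 19.6% and 19.8% for KO cells, and 20.9% and 22.1% between KO cells and hypoxia. The median log2 fold change was -0.14 under hypoxia and -0.13 in KO cells, where the median of all genes tested was 0.01 in each. NONO, one of the core proteins, had log2 fold changes of -0.02 and 0.08, and PSPC1, its partner, -0.17 and -0.29. The whole range of the list was -0.30 to 0.13 under hypoxia and -0.29 to 0.08 in KO cells, smaller in size than the values of NEAT1, and 14 of the 18 values under hypoxia and 16 in KO cells were negative.

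PVT1 (ENSG00000249859, GRCh38 chr8:127794533-128101253, plus strand) had 37.4, 36.2, 38.5 and 34.6 CPM in WT normoxia and 38.7, 36.8, 40.1 and 43.9 CPM in WT hypoxia. KO libraries had 29.8, 26.4, 30.2 and 28.2 CPM, all under every WT library. Of all genes tested, 15.2% were lower in KO cells with no overlap against WT normoxia and 17.8% against WT hypoxia. Under hypoxia the log2 fold change of PVT1 was 0.11 (95% interval -0.02 to 0.25, edgeR adjusted p = 0.214). In KO cells it was -0.36 (SE 0.06, 95% interval -0.48 to -0.23, edgeR adjusted p = 0.000463), which passed the adjusted p but not the limit of 0.5. Of all genes tested, 15.4% passed the adjusted p alone in that direction. Against WT hypoxia the KO value was -0.48 (SE 0.07, edgeR adjusted p = 0.000225), so close to the limit that PVT1 was called without WT hypoxia replicate 2 (-0.52), without KO replicate 3 (-0.51) and after upper-quartile normalization (-0.51).

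MYC, the oncogene 53.1 kb from PVT1, had log2 fold changes of 0.07 under hypoxia, -0.23 in KO cells (SE 0.05, edgeR adjusted p = 0.00253) and -0.31 between KO cells and hypoxia, each of the same sign as that of PVT1 and none called. GSDMC, the nearest protein-coding gene on the other side, lies 1647 kb away and had at most 43 counts.

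CYTOR (ENSG00000222041, GRCh38 chr2:87454781-87636740, plus strand) had 82.9, 86.7, 93.5 and 82.9 CPM in WT normoxia, 78.6, 92.3, 77.6 and 84.9 CPM in WT hypoxia, and 82.8, 83.1, 82.7 and 79.5 CPM in KO cells. All 3 groups overlapped, and the KO libraries lay closest together, with a coefficient of variation of 2.06%. Its log2 fold change was -0.06 under hypoxia (95% interval -0.21 to 0.08), -0.08 in KO cells (-0.18 to 0.02) and -0.03 between KO cells and hypoxia (-0.15 to 0.10), and each interval lies within the limit for a call. The edgeR adjusted p-values were 0.566, 0.234 and 0.775.

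CYTOR has a near copy, MIR4435-2HG, elsewhere on chromosome 2, so reads may be split between them. Of CYTOR's distinct stretches of 31 bases in the GENCODE 29 transcripts, 29.7% also occurred in any other gene and 18.7% in MIR4435-2HG. Of its 38 transcripts, 16 shared over 50% of their stretches with MIR4435-2HG. The counts of both genes were nearly equal, with a ratio of CYTOR to MIR4435-2HG between 0.964 and 1.20 in the 12 libraries. MIR4435-2HG was at 84.0 ± 1.77 CPM in WT normoxia, 76.9 ± 0.537 CPM in WT hypoxia and 79.4 ± 3.18 CPM in KO cells (SD, n = 4). Its log2 fold change was -0.14 under hypoxia (SE 0.04, edgeR adjusted p = 0.0383), under the limit for a call. With both genes summed, an alternative added after the data had been seen, the log2 fold change of KO cells against hypoxia was 0.01. The level of CYTOR alone is therefore uncertain.

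H19 (ENSG00000130600, GRCh38 chr11:1995176-2001470, minus strand), an imprinted lncRNA that is abundant in the fetus, was close to the limit of detection. WT normoxia libraries had 23, 6, 15 and 13 counts, WT hypoxia libraries 21, 6, 36 and 22, and KO libraries 10, 3, 17 and 11. In CPM these were 0.0795 ± 0.0389, 0.169 ± 0.0922 and 0.0774 ± 0.0279 (SD, n = 4), and the 3 groups overlapped. The log2 fold change was 1.07 under hypoxia (SE 0.56, 95% interval -0.17 to 2.30, edgeR adjusted p = 0.205) and -1.08 between KO cells and hypoxia (SE 0.56, edgeR adjusted p = 0.165). For KO cells against normoxia the interval was -1.32 to 1.31, so that a change of 2-fold in either direction is not excluded at this depth. The neighbour MRPL23, which encodes a mitochondrial ribosomal protein, had log2 fold changes of 0.11 and -0.26 for hypoxia and KO cells, both not called.

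MIR31HG (ENSG00000171889, GRCh38 chr9:21455642-21559669, minus strand), the host gene of miR-31, had a count of 0 in each of the 12 libraries. A count of 0 allows up to 3 counts, between 0.0140 and 0.0437 CPM depending on the library, and covers counting error only. It lies in a run of 25 protein-coding genes that all had 0 counts in all 12 libraries, from HACD4 to IZUMO3, over 3.55 Mb (chr9:20999515-24545946). Of these genes 16 encode interferons, which few cells express without infection. The other 9 were HACD4, KLHL9, MTAP, AL359922.1, CDKN2A, CDKN2B, DMRTA1, ELAVL2 and IZUMO3. MTAP, an enzyme of methionine salvage, is expressed by most cells, and CDKN2A and CDKN2B encode inhibitors of the cell cycle. The next protein-coding genes on either side had counts, FOCAD with a mean of 3.16 CPM over the 12 libraries and TUSC1 with 12.1 CPM. Of all 68 annotated genes of any type in the run 66 were at 0. The others were the processed pseudogenes KHSRPP1, with at most 14 counts, and CLIC4P1, with at most 196. Counts of RNA cannot tell a locus that is silent from one that is missing.

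**Figure D4:**
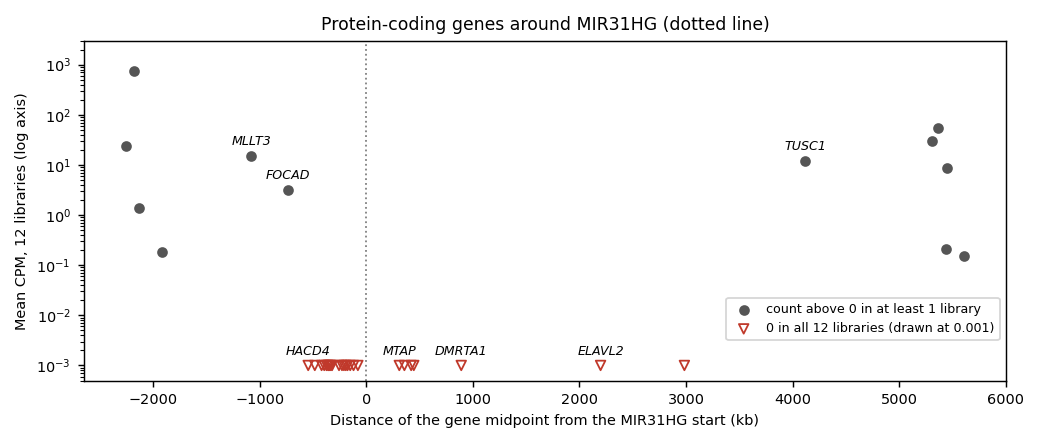
Mean level over the 12 libraries (y axis, CPM, log axis) of protein-coding genes around MIR31HG against the distance of the gene's midpoint from the MIR31HG start (x axis, kb), with open triangles, drawn at 0.001, for genes at 0 in all libraries. A run of 25 triangles reaches from HACD4 to IZUMO3 between FOCAD and TUSC1, which have counts.

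Over all 8 lncRNAs, 10 of the 13 nearest protein-coding neighbours reported here, counted once each, could be tested. Under hypoxia 2 were called higher, PLGLB1 (log2 fold change 0.56) and PLGLB2 (0.65), plasminogen-like genes on either side of CYTOR that are near copies of each other, where 5.83% of all genes were called higher. In KO cells edgeR, DESeq2 and limma-voom called 0 of the 10, and at an unadjusted p under 0.05 edgeR gave 3 with a positive and 3 with a negative change, where 9.67% of all genes were called and 19.6% and 19.8% had such a p. Between KO cells and hypoxia ARRDC3 (0.56), an arrestin-like gene 54.2 kb from LUCAT1, was higher, and PLGLB1 (-0.58) and PLGLB2 (-0.97) were lower, 3 of 10 where 15% of all genes were called. RASSF7, which lies 1.64 kb from MIR210HG, had log2 fold changes of 0.20, -0.25 and -0.46 in the 3 comparisons, and PHRF1, on its other side, 0.00, 0.14 and 0.12, none of them called.

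Levels of different lncRNAs were compared per length, as CPM per kb of exon over all annotated transcripts. On that scale MALAT1 had the highest level per length in all 3 groups, with 16.5 ± 1.61 in WT normoxia, 16.3 ± 1.20 in WT hypoxia and 26.3 ± 2.74 in KO cells (SD, n = 4). In WT normoxia PVT1 (6.68) and NEAT1 (6.20) followed, and their ranges overlapped, with 6.31 to 7.01 and 5.91 to 6.64. CYTOR came next with 4.89, then MIR210HG with 0.711, LUCAT1 with 0.348 and H19 with 0.0275. Under hypoxia NEAT1 (10.3) stood above PVT1 (7.26), MIR210HG reached 3.05, and no neighbours in the order overlapped. In KO cells NEAT1 (8.998) was again second, PVT1 was at 5.22 and CYTOR at 4.64, and MIR210HG (0.768) and LUCAT1 (0.587) overlapped. The exons of CYTOR and LUCAT1 were summed over 38 and 55 annotated transcripts, to 17.7 and 16.5 kb, so their values per length are low estimates for any 1 transcript. For NEAT1 the length is that of its long isoform, 22.7 kb, which lacks a poly-A tail. All NEAT1 counts were also divided by the 3.74 kb of exon of its other transcripts, a length tried after the data had been seen. This gave 37.8 ± 1.89 in WT normoxia, 62.9 ± 7.02 in WT hypoxia and 54.8 ± 8.10 in KO cells, above MALAT1 in each group. These are high estimates, because any counts from the long isoform stay in them while its length is left out. The place of NEAT1 in the order of the lncRNAs thus depends on the length that is taken, while the order within a gene across groups does not.

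**Figure D5:**
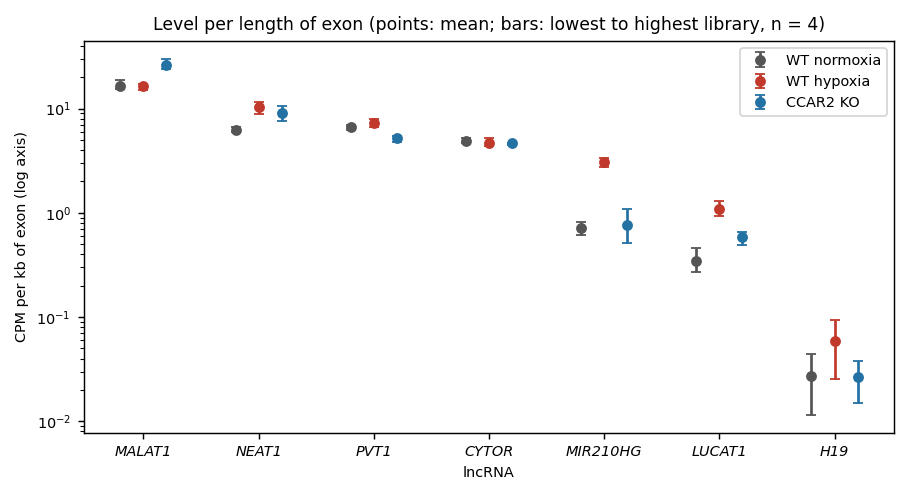
Level per length (y axis, CPM per kb of exon, log axis) of 7 lncRNAs (x axis) in the 3 groups, with points for the mean and bars from the lowest to the highest library (n = 4). MALAT1 is highest in each group when NEAT1 is divided by the exons of all its transcripts, as drawn, and MIR210HG shows the widest gap between WT hypoxia, at 3.05, and the other groups, at 0.711 and 0.768.

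Replicates spread differently by gene and group. PVT1 in WT normoxia had a coefficient of variation of 4.53% and H19 in WT hypoxia one of 54.6%. MIR210HG had 31.3% in KO cells against 12.9% in WT normoxia and 8.36% in WT hypoxia. KO replicate 3 was the highest KO library for NEAT1, MALAT1, MIR210HG, H19 and PVT1, while for LUCAT1 it was the lowest.

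As a description of their patterns, the level of each lncRNA over the 12 libraries was correlated with that of the 14705 genes with a mean of at least 100 counts. These correlations hold the group differences and are across libraries with shared controls. NEAT1 ran closest to ATG16L2 (Pearson's r = 0.978), ACAP3 (0.977) and LPIN3 (0.974). MALAT1 ran closest to C15orf39 (0.974), SIPA1L1 (0.967) and PLD1 (0.966), and MIR210HG to SYMPK (0.989), SEMA3B (0.988) and SPNS2 (0.985). For LUCAT1 these were TAZ (0.978), DUSP3 (0.958) and DDX42 (0.950), where TAZ is the tafazzin gene (ENSG00000102125). PVT1 ran closest to EARS2 (0.963), and the next 2 genes have no symbol. For CYTOR the highest values were those of UQCRB (0.929), ZBTB8OS (0.927) and CAPNS1 (0.923), and for H19, at its low counts, those of PARP16, TTLL11 and ZNF37BP were at most 0.901. Among the lncRNAs themselves NEAT1 and LUCAT1 had r = 0.84, MIR210HG and LUCAT1 0.80, NEAT1 and MALAT1 0.24, and MALAT1 and PVT1 -0.84.

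As background, 54 further lncRNAs discussed in cancer were looked up, of which 51 were in the table. Under hypoxia 43 could be tested, and 3 were called higher and 1 lower, while limma-voom called 2 higher, without LINC00511. The higher ones were HIF1A-AS3 (2.83-fold), an antisense transcript of HIF1A, UCA1 (log2 fold change 0.86), which was first described in bladder cancer, and LINC00511 (0.51), and the lower one was DLEU2 (-0.69), the host of miR-15a and miR-16. For KO cells 42 could be tested, with 4 calls in each direction. LINC00511 (0.96), HAS2-AS1 (1.26), CASC19 (1.05) and LINC00460 (0.52) were higher. HAS2-AS1 and CASC19 had low counts, at most 86 and 125 in a library, and CASC19 levels overlapped between KO cells and WT normoxia. UCA1 (-2.97) was 7.83-fold lower, and HIF1A-AS3 (-1.37), GAS5 (-0.59) and SNHG5 (-0.53), the latter both hosts of small nucleolar RNAs, were also lower. Their median log2 fold change was -0.06 under hypoxia and -0.10 in KO cells, against 0.01 over all genes tested in each. UCA1 and HIF1A-AS3 thus had opposite signs in these comparisons, while LINC00511 was called higher in both, as NEAT1 and LUCAT1 were. Between KO cells and hypoxia 3 of 42 were called higher, CASC19 (1.53), DLEU2 (0.69) and MIR22HG (0.64), and 4 lower, UCA1 (-3.84), HIF1A-AS3 (-2.88), GAS5 (-0.68) and SNHG5 (-0.54). The share called in either direction was 9.30% under hypoxia, 19.05% in KO cells and 16.7% between them, where 7.26%, 9.67% and 15% of all genes were called. Without a stated use of strand, reads of HIF1A-AS3 and HIF1A cannot be told apart where they overlap.

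Of all genes annotated as lncRNA 15842 were in the table. Under hypoxia 4286 of them could be tested, of which 252 were called higher and 38 lower. For the KO comparison 4137 could be tested, with 220 higher and 92 lower, and between KO cells and hypoxia 4028, with 152 higher and 308 lower. The share called in either direction was 6.77%, 7.54% and 11.4%, each under the 7.26%, 9.67% and 15% of all genes. By direction, 5.83%, 6.73% and 7.08% of all genes were called higher, and 1.43%, 2.94% and 7.88% lower. The median log2 fold change of the lncRNA genes was 0.16, 0.08 and -0.08, against 0.01, 0.01 and -0.02 over all genes tested. Genes were not matched for level in these shares.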

How the data were processed

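RNA-seq data of 12 libraries, 4 per group, were used, and groups were taken from the sample titles. According to the methods, the authors discarded reads with adapters, with poly-N or of poor quality, used Hisat2 for alignment and StringTie for quantification. The submitters' processing notes list HISAT2, SAMtools and featureCounts, without versions. The values that the authors deposited are estimated counts, whole numbers for each gene with no scaling to depth, and the sources differ on the tool that counted. In all 12 libraries the value 4 was more frequent than 3 or 5, so the sums may not equal numbers of reads. The genome build of the files is not given in the sources used here, and positions are those of GENCODE 29 (GRCh38), which holds 58396 of the 60664 identifiers.

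Fits used the libraries of the groups compared, with edgeR 4.0.16 (TMM, filterByExpr, glmQLFit, glmQLFTest) in R 4.3.3. For single values, exact permutation tests were two-sided. Alternatives were DESeq2 1.42.0, limma-voom (limma 3.58.1), normalization by RLE or the upper quartile, the filter on low counts left out or raised to 10 counts in every library, the adjusted p alone, a limit of 1, one fit of all 12 libraries, the replicate number as a block, and leaving out each library. The fits were tested on simulated data. Replicates of a group differed by a chi-square per degree of freedom between 13.0 and 87.2, and none were counted as 1 library. The lncRNAs and all lists were chosen with earlier results of these data known. The lncRNAs were named whatever their result, and other genes if they were on a list and called or were set beside a lncRNA, were its nearest protein-coding neighbours or were among the 3 most correlated with it. A gene that is not reported here was left out of the counts of neighbours.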

Additional observations from a re-analysis of the deposited data

Results flagged for a closer look

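In 4 libraries of a group, 1 library can stand far from the others. This was looked for in 39 groups, the levels of part of the lncRNAs and of their neighbours in each condition. Of these 2 were found, where chance gives about 1 in 20 groups. For CYTOR in KO cells, replicate 4 was the lowest, at 79.5 CPM against 82.7 to 83.1 in the other replicates, and its gap to the nearest was 0.901 of the group's range. For FRMD8, the gene beside NEAT1, WT hypoxia replicate 3 was the highest, at 51.7 CPM against 45.1 to 46.0, with a gap of 0.865 of the range. PLGLB2, a neighbour of CYTOR, was not among the groups searched. Its WT hypoxia replicate 2 also stood apart, at 1.92 CPM against 1.57 to 1.60 in the other replicates.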

How the results depend on the processing

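The alternatives changed few calls of the lncRNAs. Of their log2 fold changes under the alternatives that give such a value 319 kept their direction and their side of the call, 13 changed sign, 3 became calls and 1 lost its call. The sign changes were all in values near 0. MALAT1 under hypoxia was 0.024 with upper-quartile normalization and between -0.056 and 0.041 with 1 library left out, and its log2 CPM without TMM differed by 0.012. With 1 library left out, MIR210HG in KO cells was between -0.11 and 0.26 and CYTOR in KO cells against hypoxia between -0.057 and 0.024. CYTOR was 0.0068 when summed with MIR4435-2HG. H19 in KO cells was 0.16 with limma-voom, 0.017 with upper-quartile normalization, and between -0.27 and 0.31 with 1 library left out. NEAT1 lost its call in KO cells without KO replicate 3 (0.45). With a limit of 1 on the size of the log2 fold change, 2 of the lncRNAs were called under hypoxia, 0 in KO cells and 1 between KO cells and hypoxia. With 1 library left out, 3 lncRNAs were called under hypoxia, 2 to 3 in KO cells and 3 to 4 between KO cells and hypoxia. In the same fits 1308 to 1843, 1862 to 2097 and 2891 to 3200 of all genes were called. Over all genes the adjusted p alone gave 5127, 6506 and 7390 calls for hypoxia, KO cells and KO cells against hypoxia, and a limit of 1 gave 487, 775 and 1219, against 1582, 2070 and 3165.

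With a shorter exon length, tried after the data had been seen, NEAT1 was at 37.8, 62.9 and 54.8 CPM per kb in WT normoxia, WT hypoxia and KO cells. These are high estimates, because all counts of the gene were kept.

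The replicate numbers did not pair the libraries, since the correlations of same-numbered deviations were between -0.02 and 0.07. With the replicate number as a block 3 lncRNAs were called in each comparison, 1507, 1996 and 3091 genes were called in all, and H19 in KO cells was 0.0094 with the sign changed.

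Depth limits H19, with 3 to 36 counts, and the miR-210 precursor, with 1 to 25. The poly-A selection, the near copy of CYTOR and unstated use of strand limit NEAT1, MALAT1, CYTOR and LUCAT1.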

Other observations

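Reported targets of the miRNAs that the lncRNAs host were listed from general knowledge, and their messenger RNAs were counted. Of 8 reported targets of miR-210, 1 was called under hypoxia, where MIR210HG was higher and 7.26% of all genes were called. This was EFNA3, which encodes an ephrin, with a log2 fold change of 0.61 (edgeR adjusted p = 0.00259). E2F3 (-0.37), ISCU (-0.30), PTPN1 (-0.24), SDHD (-0.20) and COX10 (-0.17), and in the other direction RAD52 (0.31), had an edgeR adjusted p under 0.05 without reaching the limit of 0.5. Of all genes tested under hypoxia, 12% were lower and 11.6% higher at the adjusted p alone. The median of the 8 was -0.19 under hypoxia and -0.17 in KO cells, where MIR210HG was not called. Over all genes tested it was 0.01 in each. In KO cells 0 of the 8 were called by edgeR, while DESeq2 and limma-voom each called 1 lower, and at an unadjusted p under 0.05 with no limit on size edgeR gave 5 lower, where 19.8% of all genes were lower at that p. Against hypoxia, EFNA3 was called lower in KO cells (-1.12).

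Of 9 reported targets of miR-31, whose host gene had 0 counts, MMP16, a membrane-bound metalloproteinase, was called with a log2 fold change of -1.02 under hypoxia and 0.58 in KO cells, and ITGA5, an integrin, was called higher in KO cells (0.59). Under hypoxia MMP16 was the only 1 of the 9 called, where 7.26% of all genes were. RDX (-0.85), which links actin to the membrane, and the Wnt receptor FZD3 (-0.57) were called lower in KO cells, so that 4 of the 9 were called where 9.67% of all genes were. Against hypoxia, MMP16 (1.59) was called higher in KO cells and RDX (-0.67) lower, 2 of the 9 where 15% of all genes were called. Of 3 reported targets of miR-675, TGFBI, a protein of the extracellular matrix, was called lower in KO cells (-0.53) and between KO cells and hypoxia (-0.93). It was the only 1 of the 3 called there, where 9.67% and 15% of all genes were. Under hypoxia edgeR, DESeq2 and limma-voom called 0 of the 3, and edgeR called 7.26% of all genes. At an unadjusted p under 0.05 edgeR gave 1 higher and 1 lower under hypoxia, where 17.1% and 18.2% of all genes were. Mature miRNAs were not measured, so no level of a miRNA stands beside these values.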
